A study of Mus musculus with 6 samples.

Results

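The genes described here are 34 members of the amino acid response and of endoplasmic reticulum (ER) protein folding, out of 27366 features in the deposited expression table. They were found by their symbol, and all 34 were present, 21 in an arm named for the transcription factor Atf4 and 13 in an arm of ER chaperones. RNA was sequenced from mouse satellite cells, which repair skeletal muscle as its stem cells, after growth to day 4 in culture with 20% fetal bovine serum and basic FGF at 37 °C in 5% CO2. The 6 libraries comprise 3 of genotype control and 3 labelled Islr knockout, numbered 1 to 3 in each group, and the series design says that cells were sorted on whether Islr was present. Islr encodes a secreted leucine-rich repeat protein. The sources used here do not give the strain, the age, the deleted part of Islr or how it was deleted, nor whether a number marks an animal, a culture or a day. Because separate animals or cultures are not named, the p-values reflect only how far these libraries spread, and part of that may be technical.

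Atf4 is the effector of the integrated stress response. Its mRNA is translated when initiation factor eIF2 is phosphorylated, for example when amino acids run short, and the protein then switches on genes that make, import and save amino acids. The ER arm belongs to the unfolded protein response, in which Atf6 and the spliced form of Xbp1 raise the chaperones, disulfide isomerases and degradation factors that handle secreted proteins. Dividing myoblasts draw on serine, glycine and one-carbon units for nucleotide synthesis, and muscle cells that make matrix or fuse load the ER with new protein.

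The 2 arms are known for different DNA elements, and those were looked for in windows of 300 bases, from 250 before to 50 after each RefSeq start site (build GRCm38.p6). Windows were found for 29 of 34 members, 18 of the Atf4 arm and 11 of the ER arm. Each motif was searched on both strands, and no match of one motif overlapped a match of another. The C/EBP-ATF response element, searched as TGATGNAA, was in 6 of 18 Atf4-arm genes and in 1 of 11 ER-arm genes, against 4.51% of all 27025 genes with a window. The ER stress response element ERSE, searched as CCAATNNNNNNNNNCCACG, was in 5 of 11 ER-arm genes and 0 of 18 Atf4-arm genes, against 0.137% of all genes. ERSE-II, a compact form of the same element, was in 1 ER-arm gene (Herpud1), against 0.0444%. The UPRE core TGACGTGG was in 0 of the members, against 0.714%. A match is a description of these letters, and no binding was measured. The stretches that hold the matches are given below 5′ to 3′ on the strand of the gene, with the fixed letters of the motif, or of its reverse complement, in capitals, because they show the members that hold an element; 12 of 18 Atf4-arm genes had no C/EBP-ATF match and 6 of 11 ER-arm genes no ERSE match in these windows. First come those of the Atf4 arm, then those of the ER arm.
Asns, chr6:7693215-7693242, minus strand: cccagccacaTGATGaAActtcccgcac
Chac1, chr2:119351039-119351066, plus strand: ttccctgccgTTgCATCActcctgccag
Pycr1, chr11:120643834-120643861, minus strand: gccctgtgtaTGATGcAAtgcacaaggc
Nupr1, chr7:126625563-126625590, minus strand: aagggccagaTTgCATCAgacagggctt
Slc7a11, chr3:50443652-50443680, minus strand: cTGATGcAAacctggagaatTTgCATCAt
Hspa5, chr2:34772020-34772048, plus strand: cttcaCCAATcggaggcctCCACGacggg
Hsp90b1, distal, chr10:86705633-86705661, minus strand: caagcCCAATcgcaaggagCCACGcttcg
Hsp90b1, proximal, chr10:86705528-86705556, minus strand: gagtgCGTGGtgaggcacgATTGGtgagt
Calr, chr8:84847070-84847098, minus strand: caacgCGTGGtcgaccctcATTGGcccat
Pdia6, chr12:17266486-17266514, plus strand: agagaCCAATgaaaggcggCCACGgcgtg
Creld2, chr15:88819515-88819543, plus strand: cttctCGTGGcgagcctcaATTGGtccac
Herpud1, ERSE-II, chr8:94386368-94386396, plus strand: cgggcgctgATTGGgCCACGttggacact
Herpud1, C/EBP-ATF element, chr8:94386307-94386334, plus strand: ccacggcgggTTgCATCAgcccgcaccc

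The element of Asns began 23 bases before the RefSeq start, that of Pycr1 103, that of Nupr1 110 and that of Chac1 193. Slc7a11 held a pair of them, in opposite orientation, beginning 66 and 47 bases before its start. The match in Trib3 lay after the start and is not printed. In the ER arm the ERSE of Hspa5 began 65 bases before the start, that of Pdia6 98, that of Creld2 126 and that of Calr 162, and Hsp90b1 held 2, at 212 and 107. Herpud1 was the 1 member with elements of both kinds, its ERSE-II at 52 and its C/EBP-ATF element at 112. The stretches of Asns, Nupr1 and Hspa5 lie inside the gene span in the deposited table, whose models start further upstream than RefSeq's. In that table, whose coordinates for all 34 members equal those of GENCODE on GRCm38, Atf4 spans chr15:80255184-80257541 on the plus strand and Asns chr6:7675169-7693254 on the minus strand. Pycr1 spans chr11:120635712-120643769 and Slc7a11 chr3:49892526-50443614, both on the minus strand, and Hspa5 spans chr2:34771970-34777547 on the plus strand.

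Library totals ran from 16456917 to 20531276 reads on genes. The label of genotype was not borne out by Islr in every library: it stood at 181.1, 12.8 and 1579 scaled reads (reads divided by the size factor of the library) in those labelled control 1, 2 and 3 and at 256.7, 7.4 and 10.9 in those labelled knockout 1, 2 and 3. Groups are therefore named by their labels, and every direction below rests on them. The column of control 1 was tied to its label although 2 digits of its name are exchanged. Markers of the labelled cell type were present in all 6 libraries (Pax7 from 1233 to 2729, Myf5 from 1197 to 2254, Myod1 from 18888 to 33818). The summed level of 8 myogenic genes was 92173 to 182158 in control and 79377 to 173960 in knockout libraries. As in the Atf4 arm, most of these lay below 0 in log2 fold change (7 of 8, median -0.21), with 0 past the limma threshold, and Myod1 at -0.48 was lower in each pair (unadjusted limma p of 0.0356 with the replicate block). Muscle differentiation differed widely: the summed level of 16 differentiation genes was 566846, 8298 and 299402 in controls 1 to 3, against 590678, 21784 and 64276 in those labelled knockout. Myog, which commits myoblasts to differentiate, stood at 43370, 417.2 and 43261 against 37228, 1998 and 5737, and Mef2c (81.6 to 9549) and Mymk (298.3 to 15592) also spread widely over the 6 libraries. Summed markers of other cell types were present at lower levels, from 2316 to 9627 in control and 5175 to 10209 in knockout libraries for 8 fibroblast genes. The ranges were 308.9 to 636.3 and 313.7 to 1470 for 7 endothelial genes, 46.6 to 98.0 and 52.5 to 316.4 for 8 macrophage genes, 468.5 to 505.5 and 506.5 to 1519 for 6 Schwann cell genes, and 3128 to 4852 and 3748 to 5882 for 6 pericyte genes. Of 5 adipocyte genes 2 were in the table, at 26.8 to 71.6 and 16.0 to 92.9. A few genes weighed most in some of these sums. Gsn (934.6 to 6347) and Col1a1 (960.2 to 3384) had the highest values of the fibroblast list in each library. Lum (0.9 to 23.1) and Dpt (0.0 to 4.4) of that list were low. Ngfr (250.5 to 934.1) was the highest Schwann cell gene in each library. Whether these reads came from the named cell types was not tested. Of the first genes of these lists, Pdgfra ranged from 83.3 to 417.6, Ly6a from 23.3 to 663.7 and Dcn from 65.3 to 1389 over the 6 libraries (fibroblast). Pecam1 ranged from 26.7 to 328.4, Cdh5 from 110.7 to 632.7 and Kdr from 26.4 to 115.2 (endothelial), and Sox10 from 31.9 to 293.4 (Schwann cell). Among macrophage genes Ptprc was at 0.0 in all 3 controls and in knockout 2, at 1.1 in knockout 1 and highest in knockout 3, while Adgre1 (1.1 to 16.7), Csf1r (5.8 to 50.2) and Cd68 (31.9 to 204.2) had reads in all 6. Among pericyte genes Rgs5 ranged from 5.7 to 422.7 and Cspg4 from 608.5 to 3075, and Kcnj8 was at 0.0 in control 1. Of the adipocyte genes Adipoq was at 1.1 in control 1 and at 0.0 in the others, and Fabp4 ranged from 16.0 to 92.9. The medians of the fibroblast, endothelial, macrophage and Schwann cell lists were higher in the library labelled knockout of pairs 2 and 3. Their log2 fold change lay above 0 for 7 of 8 fibroblast, 7 of 7 endothelial, 6 of 8 macrophage and 6 of 6 Schwann cell genes, with 0 past the limma threshold in each list. In bulk RNA, fewer cells of a type and less RNA per cell cannot be told apart. The part of any of these in the results below was not tested.

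Expressed per length of transcript (the deposited FPKM, mean over 6 libraries), the members spanned a wide range. Calr, the calcium-binding lectin chaperone, stood at 406 FPKM and was the highest, followed by Phgdh, the first enzyme of serine synthesis, at 248. Pdia6, a disulfide isomerase, stood at 193, Hspa5, the central Hsp70 chaperone of the ER (BiP), at 192, and Atf4 at 187. At the low end were Slc7a11, the cystine importer, at 1.96 FPKM and Pycr1, the last enzyme of proline synthesis, at 3.95. The median was 24.2 FPKM in the Atf4 arm and 49.1 in the ER arm. All members passed the filter on low values (a mean of at least 1 scaled read), the least abundant with a mean of 183.8.

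The libraries labelled knockout were compared with those labelled control; the comparison follows the labels, which Islr itself did not follow in every library. Most of the Atf4 arm had fold changes below 0, while those of the ER arm lay on both sides of 0. Of 21 Atf4-arm members 17 had a log2 fold change below 0, with a median of -0.35. Of 13 ER-arm members 5 did, with a median of 0.05, where 47% of all 20344 genes tested lay below 0 and their median was 0.03. None of the 34 members passed the test (limma, adjusted p = 1 for each member), nor did any other gene (0% called). At an unadjusted p under 0.05 limma had 0 members, against 1.36% of all genes (0.211% on the lower side). When the library labelled knockout 1 was left out, 12 of 21 Atf4-arm members were below 0 and their median was -0.05, and without control 2 the median was -0.21. The ER arm moved with single libraries too: without knockout 1 its median was 0.28 with 1 of 13 below 0, and without knockout 3 it was -0.11 with 10 of 13 below 0. The members act in shared pathways and are not independent of each other.

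**Figure D1:**
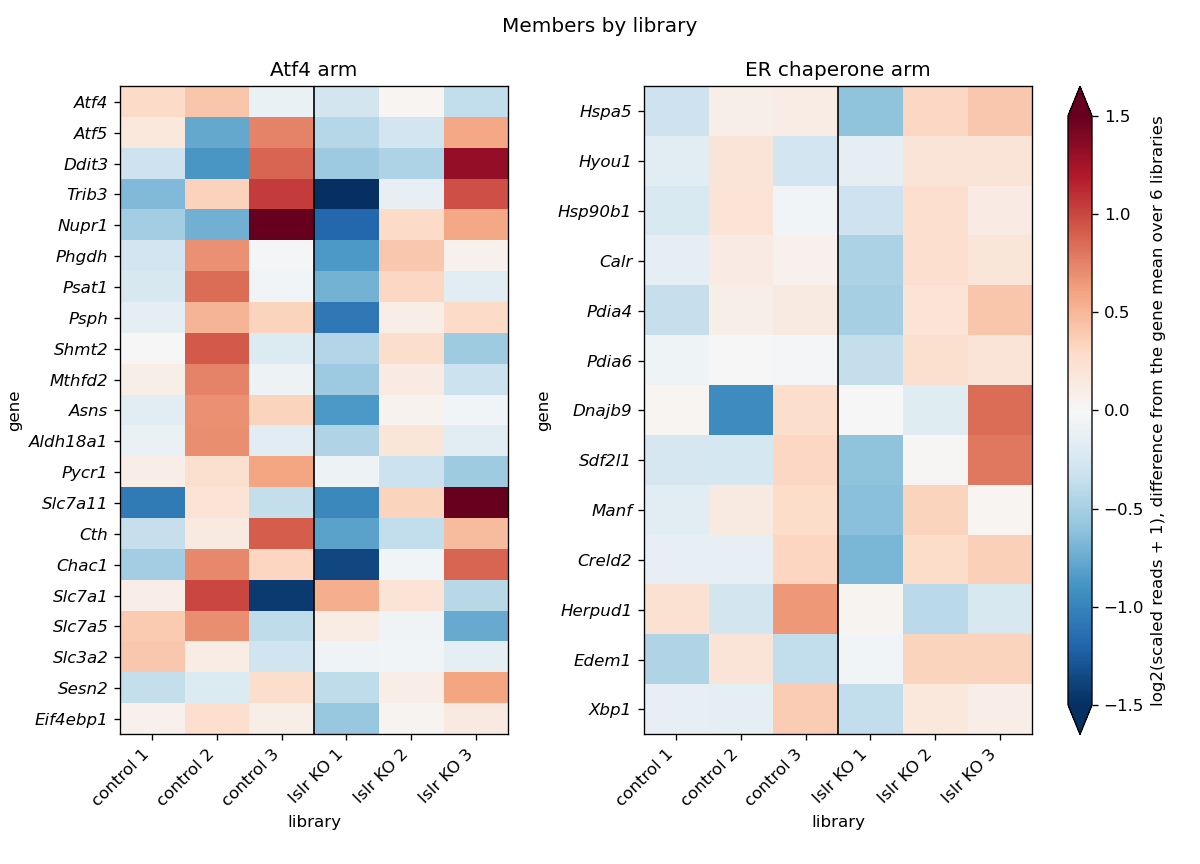
Each cell gives log2(scaled reads + 1) of 1 gene in 1 library minus the mean of that gene over the 6 libraries, blue for lower and red for higher, with colours saturated at the ends of the scale. The column of the library labelled knockout 1 is blue for most genes of both arms, and control 2 is red for the enzymes from Phgdh to Aldh18a1.

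The arms were next compared within pairs of the same number. In the Atf4 arm, 11 of 21 members were lower in the library labelled knockout of all 3 pairs, where 12.1% of all genes tested were, and 16.2% of the 10447 genes with a mean of at least 100. Aldh18a1 counts among the 11 with values of 1356 in both libraries of number 3, equal after rounding. In the ER arm 1 of 13 was lower in all 3 pairs (Herpud1). That count was 3 without pair 2. The median difference of the Atf4 arm was -0.47, -0.48 and -0.09 on the log2 scale in pairs 1, 2 and 3, and that of the ER arm was -0.24, 0.20 and 0.22. By pair, 19, 16 and 13 of 21 Atf4-arm members and 11, 2 and 3 of 13 ER-arm members were lower in the knockout library. The share of all genes that were was 45.5%, 48.4% and 47.6%, and 50.4%, 56.6% and 48.2% of those with a mean of at least 100. In each pair the median of the Atf4 arm lay below that of the ER arm, with differences of -0.22, -0.68 and -0.31. Counted over 2 pairs, 11 Atf4-arm members were lower in both without pair 1 (23% of all genes), 13 without pair 2 (26.1%) and 15 without pair 3 (19%). Without pair 1, 9 of 13 ER-arm members (69.2%) were higher in both remaining pairs, against 24.7% of all genes. Without pair 2 it was 2 of 13 (15.4%, against 30.6%), and without pair 3 it was 1 of 13 (7.69%, against 21.4%). Counts over 2 pairs were added after the values were seen.

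**Figure D2:**
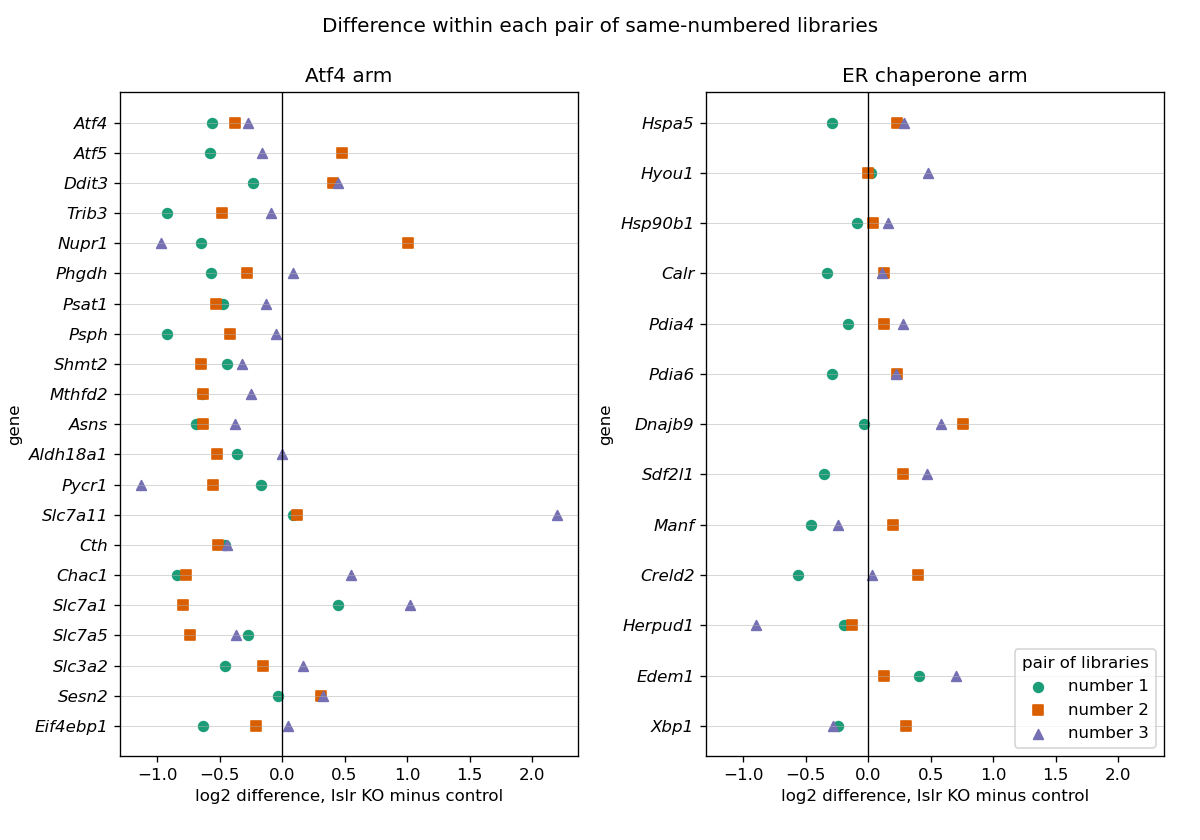
Points give the log2 difference, knockout minus control, between the 2 libraries of the same number for each gene, on log2(scaled reads + 1), with circles for number 1, squares for 2 and triangles for 3. Most points of the Atf4 arm lie left of 0, with Slc7a11 at 2.20 in pair 3 as the widest on the right, while in the ER arm most circles lie left and most squares and triangles right of 0.

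The enzymes that make serine and one-carbon units all lay below 0 (5 of 5), with a median log2 fold change of -0.46, and 4 of the 5 were lower in each pair. Mthfd2, the mitochondrial folate dehydrogenase, stood at 2462, 3888 and 2201 scaled reads in control 1, 2 and 3 and at 1582, 2518 and 1846 in the libraries labelled knockout. It was lower in each pair, but the groups overlapped because knockout 2 lay above controls 1 and 3. Its means were 2850 ± 908 and 1980 ± 482 (SD, n = 3), a log2 fold change of -0.51 ± 0.30 (SE) with a 95% confidence interval from -1.20 to 0.19. Shmt2, which splits serine into glycine and a one-carbon unit in mitochondria, stood at 5059, 9562 and 4389 in control and 3723, 6082 and 3504 in knockout libraries. Here too each pair was lower in the knockout library while the groups overlapped, and the log2 fold change was -0.47 (interval -1.30 to 0.35). Psat1, the second enzyme of serine synthesis, stood at 4718, 9942 and 5397 against 3411, 6884 and 4941. Psph, the third, stood at 677.7, 1072 and 945.2 against 358.2, 802.6 and 914.0, so that the pairs differed by -0.92, -0.42 and -0.05. Phgdh, the first, was lower in pairs 1 and 2 and higher in pair 3, at 6642, 13111 and 7994 against 4484, 10783 and 8519. Control 2 was the highest of the 6 for each of these 5 enzymes, and for 4277 of all 20344 genes tested. Among the further lists below, it was the highest for 13 of 20 aminoacyl-tRNA synthetase genes. The same held for 12 of 17 chaperones of the cytosol and mitochondria.

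All 3 genes of asparagine and proline synthesis were lower in each pair (Aldh18a1 in pair 3 by -0.00 after rounding), with a median log2 fold change of -0.57. Asns makes asparagine and is a classic Atf4 target. It stood at 2268, 4103 and 3217 scaled reads in control and 1408, 2645 and 2469 in knockout libraries, and each pair differed by -0.69, -0.63 and -0.38. The groups overlapped, since knockout 2 and 3 lay above control 1. The log2 fold change was -0.57 ± 0.34 (SE), with an interval from -1.33 to 0.19. Pycr1 was the 1 member whose groups did not overlap, at 217.8, 240.1 and 308.5 against 193.9, 163.3 and 140.6 (2.11% of all genes tested were lower without overlap). Its log2 fold change was -0.62 ± 0.32 (SE), with an interval from -1.33 to 0.10 and an unadjusted limma p of 0.0835. Aldh18a1, the first enzyme of proline synthesis from glutamate, stood at 1421, 2469 and 1356 against 1107, 1716 and 1356, even in pair 3.

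Among the regulators, Atf4 itself was lower in each pair. It stood at 8298, 9047 and 6350 in control and 5631, 6950 and 5265 in knockout libraries, and its log2 fold change was -0.40 ± 0.26 (SE), with an interval from -0.99 to 0.19. The groups overlapped, with knockout 2 above control 3. Atf4 activity is set mainly by translation, which RNA levels do not show. Trib3, a pseudokinase that Atf4 induces and that holds it back, stood at 130.0, 262.2 and 427.0 against 68.5, 188.2 and 401.7. Libraries of number 3 were the highest and those of number 1 the lowest in both groups, and the pairs differed by -0.92, -0.48 and -0.09. Ddit3 (CHOP), which promotes death under lasting stress, was lower in pair 1 and higher in pairs 2 and 3, at 138.9, 94.4 and 317.1 against 118.7, 125.5 and 433.5. Exons of 3 other entries overlap those of Ddit3: Mars and Gm4189 on the other strand, and a further entry named Ddit3 on the same strand. The use of strand in counting is not given, and it would not separate the Ddit3 entries. Atf5, a relative of Atf4, stood at 1783, 938.1 and 2675 against 1189, 1311 and 2386. Nupr1, a stress-induced chromatin protein, stood at 208.9, 181.8 and 875.3 against 132.3, 367.2 and 446.9. Neither Atf5 nor Nupr1 kept a direction over the pairs.

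The genes of cysteine and glutathione went in different directions. Slc7a11 was the member with the highest fold change and was on the higher side in each pair, at 117.8, 285.5 and 193.5 in control and 125.5, 310.9 and 893.9 in knockout libraries. The size rested on the library labelled knockout 3: the pairs differed by 0.09, 0.12 and 2.20, and the log2 fold change of 0.81 ± 0.68 (SE; interval -0.76 to 2.37) was 0.08 without that library. Cth, which makes cysteine from cystathionine, was lower by a like amount in each pair (-0.46, -0.51 and -0.44), at 133.3, 186.5 and 319.6 against 97.0, 131.0 and 235.2. Chac1, which degrades glutathione, stood at 221.1, 526.7 and 399.7 against 123.2, 309.1 and 585.9, lower in pairs 1 and 2 and higher in pair 3.

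Of the transporters, Slc7a5, the light chain of the large neutral amino acid carrier, was lower in each pair. It stood at 6078, 7501 and 3552 in control and 5034, 4475 and 2742 in knockout libraries, a log2 fold change of -0.46 ± 0.36 (SE). Its heavy chain Slc3a2 stood at 5081, 4152 and 3115 against 3692, 3735 and 3495, with the knockout libraries inside the range of the controls. Slc7a1, which imports arginine and lysine, ranged from 791.8 in control 3 to 4271 in control 2, and the knockout libraries, at 3127, 2461 and 1603, lay inside that range. Sesn2, an inhibitor of the growth kinase mTORC1, stood at 565.5, 629.3 and 870.2 against 555.6, 779.6 and 1092. Eif4ebp1, which holds back cap-dependent translation, stood at 2633, 2995 and 2676 against 1703, 2591 and 2765, its lowest value in knockout 1.

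**Figure D3:**
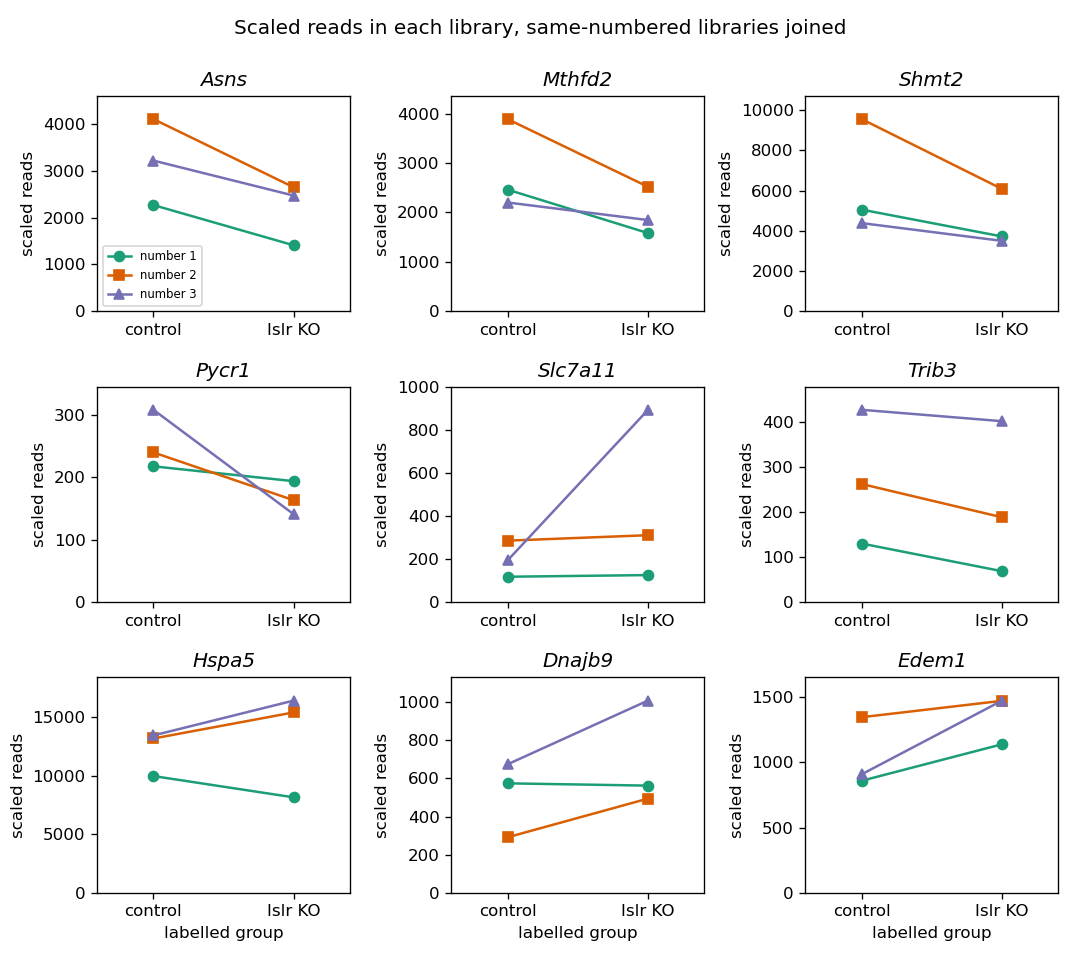
Scaled reads (linear axis from 0) of 9 members in each library, with lines joining the control and the Islr knockout library of the same number. The Atf4-arm genes shown each keep 1 direction over the pairs, whereas 9 of 21 in that arm do not, so they do not stand for the arm. All 3 lines run downward for Asns, Mthfd2, Shmt2, Pycr1 and Trib3, all 3 run upward for Slc7a11 and Edem1, and those of Hspa5 and Dnajb9 go both ways.

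For the large chaperones of the ER arm the fold changes lay near 0. Hspa5 stood at 9963, 13168 and 13430 scaled reads in control and 8142, 15399 and 16409 in knockout libraries. It was lower in the knockout library of pair 1 and higher in pairs 2 and 3 (-0.29, 0.23 and 0.29), and its log2 fold change was 0.07 ± 0.33 (SE), with an interval from -0.67 to 0.82. Hsp90b1, the Hsp90 of the ER, stood at 6608, 8909 and 7491 against 6203, 9172 and 8394, with an interval from -0.57 to 0.64. Calr stood at 14398, 17256 and 16638 against 11483, 18948 and 17980 (interval -0.67 to 0.62). The disulfide isomerases were likewise lower in pair 1 and higher in pairs 2 and 3, Pdia4 at 2612, 3518 and 3644 against 2341, 3837 and 4436 and Pdia6 at 7228, 7603 and 7467 against 5931, 8917 and 8688. Hyou1, which exchanges nucleotide on BiP, differed by 0.02, 0.00 and 0.48 over the pairs.

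The cochaperones and the degradation factors spread more. Dnajb9, a J-domain partner of BiP, stood at 574.4, 291.3 and 674.2 in control and 562.4, 494.5 and 1009 in knockout libraries, with a log2 fold change of 0.44 ± 0.40 (SE). Sdf2l1, which works with BiP cochaperones, stood at 295.5, 292.5 and 438.1 against 231.6, 355.2 and 607.6, highest in knockout 3. Edem1, which hands misfolded glycoproteins to degradation, was the 1 of 13 ER-arm members that was higher in each pair, against 12.2% of all genes tested. It stood at 858.8, 1346 and 908.5 against 1139, 1472 and 1474. Its groups overlapped through control 2, and the log2 fold change was 0.41 ± 0.27 (SE; interval -0.20 to 1.02). Herpud1, a membrane protein of ER-associated degradation, was lower in each pair (-0.19, -0.13 and -0.90), at 1465, 1035 and 1970 against 1287, 946.6 and 1058. Its log2 fold change was -0.40, with the widest difference in pair 3. Xbp1 RNA stood at 1718, 1696 and 2429 against 1450, 2088 and 1999, and gene-level reads do not show its splicing. Manf and Creld2, small ER proteins that stress induces, had log2 fold changes of -0.17 and -0.04. Exons of other genes overlap those of Manf, and of 9 members in all.

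**Figure D4:**
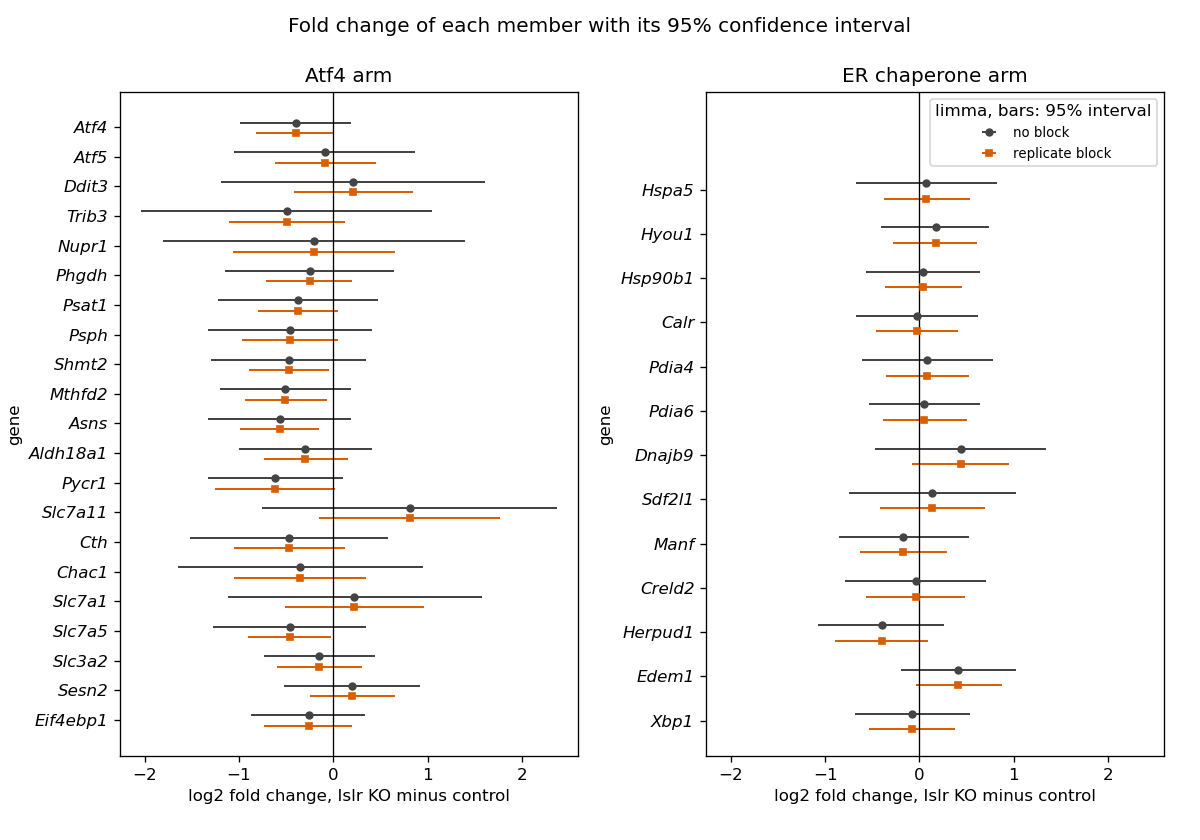
Log2 fold change of each member, knockout minus control, with 95% confidence intervals from limma without a block (circles) and with the replicate number as a block (squares). All intervals without a block reach across 0; with the block those of Asns, Mthfd2, Shmt2 and Slc7a5 lie below it before adjustment for multiple testing.

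Same-numbered libraries deviated together from their group means, but what a number marks is not given. They were not alike in differentiation: of 16 differentiation genes, 16 were lower in the knockout library of pair 3 and 14 higher in that of pair 2. Myog was at 43261 in control 3 against 5737 in knockout 3. A fit with the number as a block, which rests on this pairing, narrowed the intervals. Asns then had an unadjusted limma p of 0.0142, Mthfd2 0.0267, Shmt2 0.0314 and Slc7a5 0.0398. These 4 of 34 members compare with 4.59% of all genes tested at the same unadjusted threshold, and all 4 were in the Atf4 arm. Each was lower in 3 of 3 pairs, which is no separate result, because the block fit rests on the same pair differences. The limma adjusted p was 0.92 for each of the 4, so none passed with the block either. In the authors' deposited table the lowest p of a member was 0.08, and 0 members passed there after adjustment.

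The libraries also differed by replicate number. The range of the 3 number means had a median of 0.96 on the log2 scale in the Atf4 arm and 0.54 in the ER arm, and 0.91 over all genes. The median size of a difference within a pair was 0.45, 0.24 and 0.43. Number 1 had the lowest mean for 13 of 21 Atf4-arm and 11 of 13 ER-arm members, and the library labelled knockout 1 was the lowest of all 6 for 12 and 9. Over all 20344 genes, number 1 had the lowest mean for 6424 and knockout 1 was the lowest library for 3255. An F test for the number in the additive model passed 2 of 34 members, a share near the 6.35% of all genes tested. At an unadjusted p under 0.05 it had 17 of 21 Atf4-arm and 4 of 13 ER-arm members, against 27% of all genes. Trib3 averaged 99.2, 225.2 and 414.4 scaled reads in numbers 1, 2 and 3 (limma adjusted p = 0.023), and Ddit3 averaged 128.8, 109.9 and 375.3 (limma adjusted p = 0.0331). This count of 2 ran from 0 to 6 when 1 library was left out, at 0 without control 1, control 3, knockout 1 or knockout 3, 1 without control 2 and 6 without knockout 2, and edgeR passed 1. What sets the numbers apart is not in the labels. Of the 16 differentiation genes 15 had an unadjusted p under 0.05 in the same F test, and their part in these differences was not tested.

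Other genes of the pathways showed no member past the limma threshold. Of 20 cytosolic aminoacyl-tRNA synthetase genes, which charge tRNAs and are partly Atf4-driven, 0 passed and 19 lay below 0, with a median log2 fold change of -0.18 (pairs -0.27, -0.17 and 0.05). Lars, for leucine, stood at 4312, 4067 and 3327 against 3408, 3126 and 2761, and Yars, for tyrosine, at 2819, 2876 and 2211 against 1900, 2547 and 1909. Both were lower in each of the 3 pairs. Of 19 further genes known as Atf4 targets 0 passed and 12 lay below 0 (median -0.10). Gpt2, a mitochondrial alanine transaminase, stood at 911.0, 1449 and 2609 against 823.7, 798.0 and 1218, while the stress cytokine Gdf15 stood at 322.2, 172.5 and 437.2 against 243.0, 643.0 and 1073. The log2 fold change of Gpt2 was -0.70 and that of Gdf15 was 0.93.

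Of 12 genes for stress kinases, sensors and their processing, 0 passed and 5 lay below 0. Eif2ak3 (PERK), the ER kinase upstream of Atf4, was on the higher side in each pair at 260.0, 284.3 and 235.2 against 311.5, 366.3 and 426.0, and its groups did not overlap, where 2.65% of all genes were higher without overlap. Its log2 fold change was 0.49 ± 0.28 (SE). Ern1 (IRE1), the sensor that splices Xbp1, stood at 802.1, 950.9 and 434.7 against 1147, 798.0 and 1238. Of 26 other ER folding genes 0 passed and 6 lay below 0 (median 0.12), among them the cyclophilin Ppib at 2002, 2152 and 2472 against 1644, 2035 and 1615. Fkbp14, a prolyl isomerase for collagens, stood at 357.7, 163.1 and 496.0 against 378.8, 422.5 and 655.3. Chaperones of the cytosol and mitochondria, with 0 of 17 passing, had 13 below 0 and a median of -0.21. The heat shock gene Hspa1b stood at 171.1, 201.6 and 223.3 against 165.4, 501.9 and 335.6, and it may share reads with its near-identical copy Hspa1a. The mitochondrial Hspe1 stood at 4185, 6452 and 5504 against 2775, 5826 and 3816, lower in each pair.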

How the data were processed

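RNA-seq of 6 mouse satellite cell libraries, 3 per genotype label, was used. The submitters' processing notes name HISAT2 2.0.5 and Trimmomatic, HTSeq for counting, and edgeR 3.18.1 beside DESeq2 1.16.1, with no word on strand. The authors deposited a table of 27366 features with read counts scaled by a size factor per library, a signal whose values are whole reads divided by that factor. Multiplying back gave whole reads for 100.0% of values within 0.01, and 480 of 480 genes equalled the raw counts in a deposited count table. FPKM were deposited beside them and fit the longest transcript of each member within 1 base. The log2 fold changes and p-values of the authors' deposited table were read as given. A total of 36 damaged lines were dropped, and 6 columns with values per sample were left aside.

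Genes with a mean of at least 1 scaled read (20344) were tested on log2(scaled reads + 1) with limma 3.58.1 (trend and robust, no block) in R 4.3.3, with Benjamini-Hochberg adjustment over all of them and a threshold of 0.05. Fold changes are on this scale and understate those of low genes. Same-numbered libraries deviated together from their group means (correlations 0.689, 0.633 and 0.625 over the 14280 genes whose mean reached 10), so a fit with the number as a block was also made, as were edgeR 4.0.16 and DESeq2 1.42.0 fits on the recovered reads. The fits were tested on simulated data. Pairs were formed from the labels' replicate numbers. Beside the members, Islr, Myog and the 2 genes with the lowest unadjusted p in each further pathway list were named, and marker lists by their sums and first 3 genes, some of which are not reported here; Cd68 and Fabp4 were added after their values were seen. The members and lists were chosen with earlier results of these data known. Totals of 16456917 to 20531276 reads stood behind the values, with 3 libraries per group.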

Additional observations from a re-analysis of the deposited data

How the results depend on the processing

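No member passed the threshold under any of the 21 settings tried, and the lowest adjusted p of a member was 0.511 across limma, edgeR and DESeq2. Over all genes the count past the threshold was 0 except with DESeq2 on recovered reads with the replicate block, where it was 7. The fit with the replicate block in limma called 0 genes, with 933 at an unadjusted p under 0.05 against 276 without it. Of 714 member values 57 were reversed, and 16 of 34 members kept their direction throughout, 12 of the Atf4 arm and 4 of the ER arm. Some of the 714 could not reverse: the filters, and the limma replicate block with all libraries, leave a member's fold change as in the main fit. The share reversed is therefore not a measure of stability. The median of the Atf4 arm ranged from -0.46 to -0.05 when a library or a pair was left out, the latter without knockout 1, and that of the ER arm from -0.11 to 0.28. The count of members that differed by replicate number was 1 with edgeR and 0 to 6 with 1 library left out. Members lower in every pair numbered 11 to 15 in the Atf4 arm and 1 to 3 in the ER arm when a pair was left out, an alternative chosen after seeing the data. Such a count cannot fall when a pair is left out, so it does not test the result. The share of all genes rose too, from 12.1% over 3 pairs to between 19% and 26.1% over 2.

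Slc7a1 had log2 fold changes of -0.02 with edgeR and -0.03 with DESeq2, Creld2 of 0.00 with library size alone, 0.01 with edgeR and 0.01 with DESeq2, and Calr of 0.02, 0.01 and 0.00 in the same order. With 1 library left out, the values of the Atf4 arm that turned ranged from -0.50 to 0.26 for Atf5, -0.40 to 0.70 for Ddit3, -1.10 to 0.17 for Trib3, -0.88 to 0.24 for Chac1 and -0.52 to 0.11 for Phgdh. They ranged from -0.44 to 0.78 for Slc7a1, -0.34 to 0.02 for Slc3a2, -0.04 to 0.45 for Sesn2 and -0.61 to 0.52 for Nupr1. In the ER arm they ranged from -0.11 to 0.40 for Hspa5, -0.08 to 0.21 for Hsp90b1, -0.10 to 0.36 for Pdia4, -0.05 to 0.24 for Pdia6 and -0.23 to 0.47 for Sdf2l1. For Manf the range was -0.38 to 0.10, for Creld2 -0.23 to 0.29, for Xbp1 -0.17 to 0.09 and for Calr -0.16 to 0.20. In fits with the replicate block, leaving out pair 1 gave 0.16 for Atf5, 0.01 for Slc3a2, 0.02 for Nupr1, 0.21 for Creld2, 0.01 for Xbp1 and 0.12 for Calr. Leaving out pair 2 gave -0.00 for Hspa5 and -0.03 for Pdia6. Leaving out pair 3 gave -0.17 for Slc7a1, 0.18 for Nupr1, -0.03 for Hspa5, -0.02 for Hsp90b1, -0.02 for Pdia4, -0.03 for Pdia6, -0.04 for Sdf2l1 and 0.03 for Xbp1. The cause was not tested. Totals ran from 16456917 to 20531276 reads, and each group has 3 libraries.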
